A study of Mus musculus with 17 samples.

Results

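Plasminogen activation dissolves fibrin, and the coagulation cascade lays it down. The 9 genes described here belong to the control of both systems or to the same protein family: Plau, Plaur, Plat and Serpine2 on the side of plasminogen activation, Serpinf1 as a further serpin listed with them, and F3, Thbd, Tfpi and Procr on the side of coagulation. They were chosen by symbol as a list, by a rule that sets no threshold on their values but with earlier results of these data known, and make up 9 of the 31647 features counted. The comparison asked how transcripts of these genes differed between infarcted and sham-operated heart tissue.

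Transcripts were counted at their 3' ends in 17 hearts. The sham group held left ventricles of 8 mice that underwent surgery without coronary ligation, taken 5 days after that surgery. The infarct zone (IZ) group held the infarcted tissue of 9 mice, taken 5 days after surgery in which the LAD, the coronary artery that feeds the front of the left ventricle, was tied off for good to induce myocardial infarction (MI). All mice were wild-type males of the strain C57BL/6J, aged 8 to 11 weeks, all had anaesthesia and an analgesic for surgery and a hemodynamic measurement before the organs were taken, and the ligation was not reperfused, which limits it as a model of a vessel that is opened again.

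As background, the urokinase-type activator uPA (Plau) and the tissue-type activator tPA (Plat) cut plasminogen to plasmin, the protease that degrades fibrin and also matrix proteins. uPA is held at the cell surface by its receptor uPAR (Plaur). Serpins inhibit the activators by forming covalent complexes with them. Coagulation starts when tissue factor (F3) meets factor VII, and is held in check on the endothelium by the tissue factor pathway inhibitor (Tfpi), by thrombomodulin (Thbd), which turns thrombin toward activating protein C, and by the endothelial protein C receptor EPCR (Procr). In the infarct, these systems act while necrotic muscle is replaced by granulation tissue.

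All 9 genes passed the filter on low counts and differed between IZ and sham at an adjusted p under 0.05 (edgeR quasi-likelihood test, Benjamini-Hochberg over 12301 tested genes). 6 were higher in IZ, Plau, Plaur, Plat, Serpine2, Serpinf1 and Procr, and 3 were lower, F3, Thbd and Tfpi. Plaur and Procr in sham and F3 in IZ fell short of the filter on low counts, so each met it through the group where it was high. With no filter on low counts, 6 of the 9 were again called higher and 3 lower. The background was high: 69.5% of all tested genes passed the same threshold, 36.3% as higher and 33.1% as lower. The median log2 fold change of the 9 genes was 1.19, and that of all tested genes was 0.05. In 4 of the 9 genes every IZ library was above every sham library, which was so for 16.6% of tested genes, and in 3 every IZ library was below every sham library, which was so for 16.5%.

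**Figure D1:**
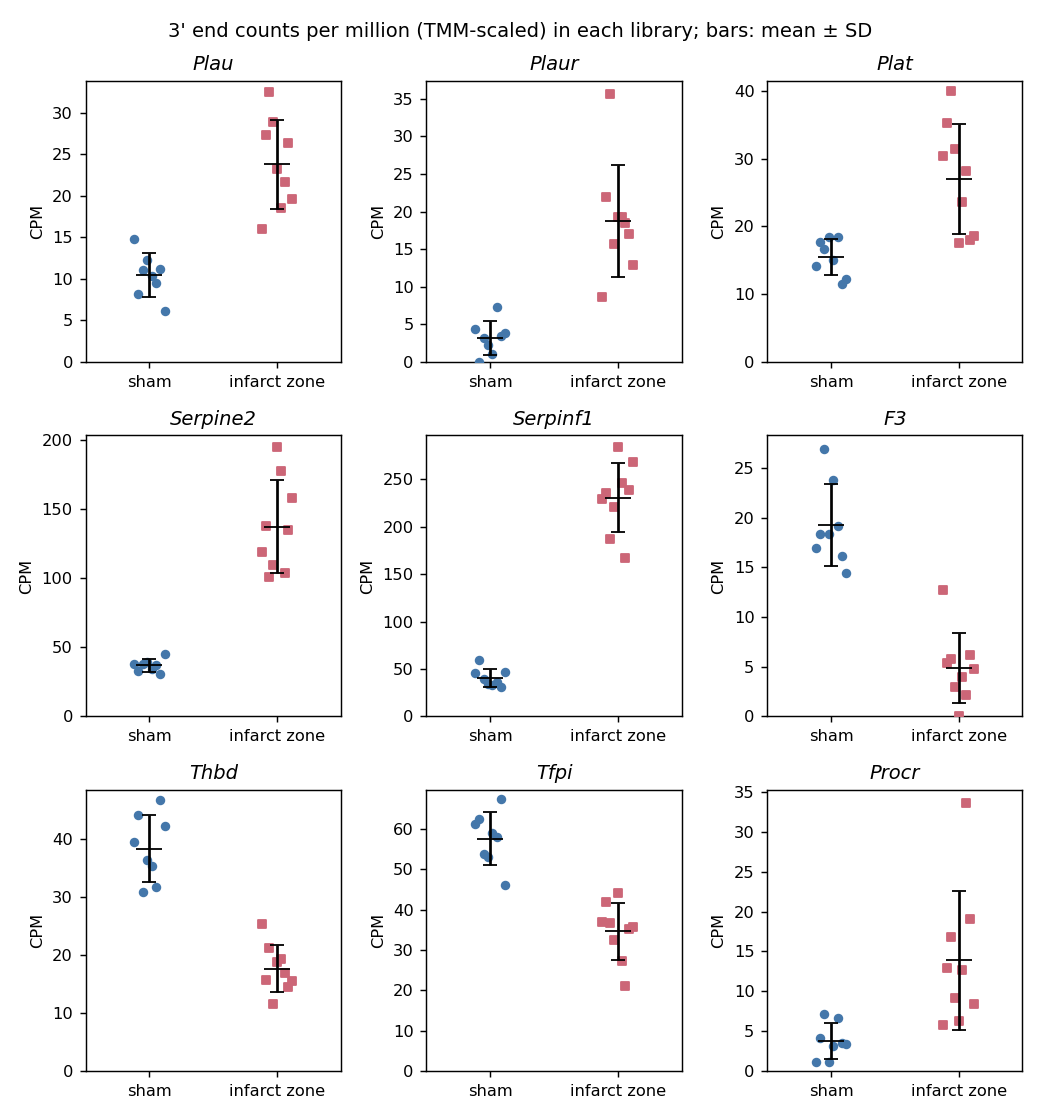
CPM (counts relative to the TMM-scaled library size) of each of the 9 genes in 8 sham and 9 IZ libraries, with 1 point per library and a bar for the group mean with its SD. In Plau, Plaur, Serpine2 and Serpinf1 all 9 IZ points lie above all sham points, and in F3, Thbd and Tfpi all 9 lie below; scaled by total counts alone, Tfpi turned to a rise.

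The IZ libraries differed widely from sham in cell type markers. The 8 cardiomyocyte markers were all lower, with a summed level of 66820 to 79417 CPM in sham and 2826 to 29636 CPM in IZ. IZ replicate 1 stood apart at 29636 CPM, with the other 8 IZ libraries at or below 6774 CPM, and mitochondrial transcripts took 19.5% of its counts against 4.22% to 6.78% in those 8. Fibroblast markers summed to 2373 to 4022 CPM in sham and 10268 to 17359 CPM in IZ, and macrophage and monocyte markers to 387 to 566 CPM and 2223 to 5683 CPM. Of the 10 fibroblast markers, 8 were called higher, 1 lower and 1 neither. All 9 tested macrophage and monocyte markers were called higher. In such bulk tissue, a change in the number of cells of a type and a change in RNA per cell cannot be told apart. Counts per library ran from 1237675 to 4738307 per library, and the precision of low genes is limited by counts given below.

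The upstream windows of Plaur and F3 are shown because Plaur, with Serpinf1, rose the most and F3 fell the most on the log2 scale among the 9, and because both hold AP-1 letters. Each is the 250 bases before the RefSeq start on GRCm38.p6, read 5' to 3' along the gene's own strand, with capitals for the AP-1 letters TGANTCA and, in F3, also for the NF-kB letters GGANTTTCC, searched on both strands. The windows lie at chr7:24462233-24462482 (plus strand) and chr3:121723287-121723536 (plus strand).
Plaur: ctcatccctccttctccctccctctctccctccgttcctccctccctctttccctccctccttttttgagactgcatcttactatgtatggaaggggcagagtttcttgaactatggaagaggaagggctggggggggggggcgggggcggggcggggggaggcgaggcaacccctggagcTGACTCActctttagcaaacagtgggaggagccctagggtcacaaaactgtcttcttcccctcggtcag
F3: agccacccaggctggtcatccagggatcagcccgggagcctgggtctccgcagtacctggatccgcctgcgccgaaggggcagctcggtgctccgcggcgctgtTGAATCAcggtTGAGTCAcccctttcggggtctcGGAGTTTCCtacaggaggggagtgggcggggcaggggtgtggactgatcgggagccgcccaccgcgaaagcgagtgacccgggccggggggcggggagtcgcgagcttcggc

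Windows were found for 6 of the 9 genes, with 2 for Tfpi, and so for 7 in all; Plau, Plat and Thbd had none. AP-1 letters occurred in 3 of these 7 windows and in 6.75% of 32851 promoter windows of the same length. In Plaur they began 69 bases before the start, in F3 at 146 and at 135 bases, and in Procr, which like Plaur carried TGACTCA, at 154 bases. The NF-kB letters occurred once, in F3, as GGAGTTTCC at 112 bases before the start, and in 1.07% of all windows. The genes that share AP-1 letters thus moved in both directions, Plaur and Procr up and F3 down. Of the other letters searched, on both strands and with overlaps allowed, GGGCGG (Sp1) occurred in 5 of the 7 windows and in 32.7% of all, CACCC (Krueppel-like factors) in 5 and in 52.0%, TATAAA in 1 and in 12.4%, and ACGTG (HIF) in 1 and in 16.6%. A match of letters describes the window and shows no binding.

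Among the activators, Plau rose in every IZ library. The gene (ENSMUSG00000021822, mm10 chr14:20836660-20843385, plus strand) was read at 6.11, 10.7 and 14.8 CPM in sham as the lowest, median and highest library, and at 15.9, 23.2 and 32.5 CPM in IZ. The groups did not overlap, and IZ replicate 1 was the lowest and IZ replicate 3 the highest of the IZ libraries. Plau averaged 10.4 ± 2.62 CPM (SD, n = 8) and 23.8 ± 5.38 CPM (SD, n = 9), 1.19 ± 0.18 (SE) higher on the log2 scale or 2.29-fold, with an adjusted p of 2.65e-06 by edgeR's quasi-likelihood test. The sham values rest on 11 to 29 counts per library and the IZ values on 40 to 197.

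Plaur, which encodes the uPA receptor, had the largest log2 fold change of the 9 genes, close to that of Serpinf1, which was above it when sham replicate 2 (2.41 against 2.59), sham replicate 5 (2.43 against 2.45) or IZ replicate 3 (2.41 against 2.56) was left out. The gene (ENSMUSG00000046223, chr7:24462484-24475968, plus strand) ranged from 0 over a median of 3.32 to 7.35 CPM in sham and from 8.70 over 18.4 to 35.6 CPM in IZ. Every IZ library was above every sham library, again with replicate 1 lowest and replicate 3 highest within IZ. From a sham mean of 3.19 ± 2.24 CPM (SD, n = 8) Plaur reached 18.7 ± 7.45 CPM in IZ (SD, n = 9), 2.58 ± 0.34 higher on the log2 scale, with an adjusted p of 4.81e-07 in the edgeR fit. Sham replicate 2 had 0 counts, which allows up to 2.04 CPM, and the sham libraries held 0 to 10 counts, so the sham level of Plaur is only loosely fixed.

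Plat, which encodes tPA, an activator made by endothelium among other cells, rose less. The gene (ENSMUSG00000031538, chr8:22757727-22782844, plus strand) was read at 11.6, 15.8 and 18.4 CPM in sham and at 17.6, 28.2 and 40.05 CPM in IZ as lowest, median and highest. The groups overlapped, with 7 of 9 IZ libraries above the highest sham library; IZ replicate 5 was the lowest and replicate 3 the highest. The means of 15.5 ± 2.69 CPM (SD, n = 8) and 27.0 ± 8.08 CPM (SD, n = 9) differed by 0.85 ± 0.18 on the log2 scale (1.80-fold, edgeR adjusted p = 2.31e-04), the largest adjusted p among the 9.

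The 2 serpins of the list had the highest IZ levels of the 9 genes. Serpine2 encodes protease nexin, a cell-associated inhibitor of thrombin, uPA and tPA (ENSMUSG00000026249, chr1:79794197-79861180, minus strand). It was read at 30.8, 37.6 and 44.99 CPM in sham and at 100.7, 135 and 195 CPM in IZ as lowest, median and highest library. The lowest IZ library was thus above the highest sham library, and replicate 5 was the highest within IZ. From 36.9 ± 4.40 CPM (SD, n = 8) to 137 ± 33.4 CPM (SD, n = 9), its log2 fold change was 1.89 ± 0.14, or 3.72-fold, with an adjusted p of 8.90e-11 in the edgeR fit.

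Serpinf1 encodes pigment epithelium-derived factor, a secreted serpin known as an inhibitor of angiogenesis and not as an inhibitor of proteases (ENSMUSG00000000753, chr11:75409769-75422701, minus strand). Its lowest, median and highest values were 30.8, 38.2 and 59.7 CPM in sham and 167, 236 and 284 CPM in IZ. The groups were far apart, and within IZ replicate 7 was the lowest and replicate 5 the highest. The means were 40.9 ± 9.53 CPM (SD, n = 8) and 231 ± 36.4 CPM (SD, n = 9), a 5.66-fold difference (log2 2.50 ± 0.15, edgeR adjusted p = 2.01e-12). This was the smallest adjusted p of the 9 genes, and 94.2% of tested genes had a lower log2 fold change.

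F3, which encodes tissue factor, fell the most. The gene (ENSMUSG00000028128, chr3:121723537-121735048, plus strand) was read at 14.4, 18.4 and 26.9 CPM in sham and at 0, 4.73 and 12.7 CPM in IZ. All 9 IZ libraries were below all sham libraries. The highest IZ value was that of replicate 1, the library with the most cardiomyocyte transcripts, and replicate 5 had 0 counts, which allows up to 1.70 CPM. The means were 19.3 ± 4.12 CPM (SD, n = 8) and 4.88 ± 3.52 CPM (SD, n = 9), a fall by 1.92 on the log2 scale (SE 0.30), or 3.77-fold, with an adjusted p of 5.70e-06 by the quasi-likelihood test of edgeR. Without IZ replicate 1 the IZ mean was 3.91 ± 2.10 CPM and the log2 fold change -2.21.

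The cardiomyocyte markers fell more than F3 did. Set against their sum in the same library, F3 was higher in IZ, with a log2 ratio of -11.9 in sham and -10.4 in IZ, and 8 of 9 IZ libraries were above all sham libraries while 1 was below. This ratio was chosen after values had been seen and is given as a description. The part of the loss of muscle in the fall of F3 was not tested.

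Tfpi, the inhibitor of the tissue factor complex, was the most abundant of the 9 genes in sham. The gene (ENSMUSG00000027082, chr2:84432855-84476775, minus strand) was read at 46.1, 58.5 and 67.4 CPM in sham and at 21.1, 35.8 and 44.2 CPM in IZ. The groups did not overlap, by a gap that was small beside their ranges, and IZ replicates 7 and 5 were the lowest and the highest. It fell from 57.6 ± 6.58 CPM (SD, n = 8) to 34.6 ± 7.04 CPM (SD, n = 9), by 0.73 on the log2 scale (SE 0.12) or 1.66-fold, with an adjusted p of 1.59e-05 in edgeR.

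Thbd, the thrombin-binding cofactor of the protein C pathway, fell by more than Tfpi. The gene (ENSMUSG00000074743, chr2:148404466-148408188, minus strand) ranged from 30.9 over 37.8 to 46.6 CPM in sham and from 11.5 over 16.8 to 25.4 CPM in IZ. No IZ library reached the lowest sham library, and the highest IZ value was again that of replicate 1. The means were 38.3 ± 5.77 CPM (SD, n = 8) and 17.6 ± 4.06 CPM (SD, n = 9), a fall by 1.13 on the log2 scale (SE 0.14), or 2.19-fold, with an adjusted p of 2.50e-07 in the edgeR fit.

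The falls of Thbd and Tfpi, unlike that of F3, hold relative to the other genes and not relative to all counts. Scaling by total counts alone moved the median log2 fold change of all genes by 1.09, and of the genes it called 85.8% were higher, against 52.3% with TMM scaling. Mitochondrial transcripts took 22.9% to 32.4% of the counts in sham and 4.22% to 19.5% in IZ. On that scale Thbd was at -0.06 (edgeR adjusted p = 0.699), Tfpi reversed to 0.35 (edgeR adjusted p = 0.0158) and F3 was at -0.87 (edgeR adjusted p = 0.00601). Relative to the shift of the median, F3 was at -1.96, Thbd at -1.15 and Tfpi at -0.73.

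Procr, which encodes the receptor that presents protein C to the thrombin-thrombomodulin complex, went the other way. The gene (ENSMUSG00000027611, chr2:155751117-155755471, plus strand) was read at 1.09, 3.40 and 7.13 CPM in sham and at 5.80, 12.7 and 33.6 CPM in IZ. The groups overlapped, with 7 of 9 IZ libraries above all sham libraries, replicate 1 lowest and replicate 7 far above the rest. The means of 3.74 ± 2.22 CPM (SD, n = 8) and 13.9 ± 8.69 CPM (SD, n = 9) gave a log2 fold change of 1.92 ± 0.38 (3.79-fold, edgeR adjusted p = 1.04e-04). With 2 to 9 counts per sham library, the sham level has a wide counting error.

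**Figure D2:**
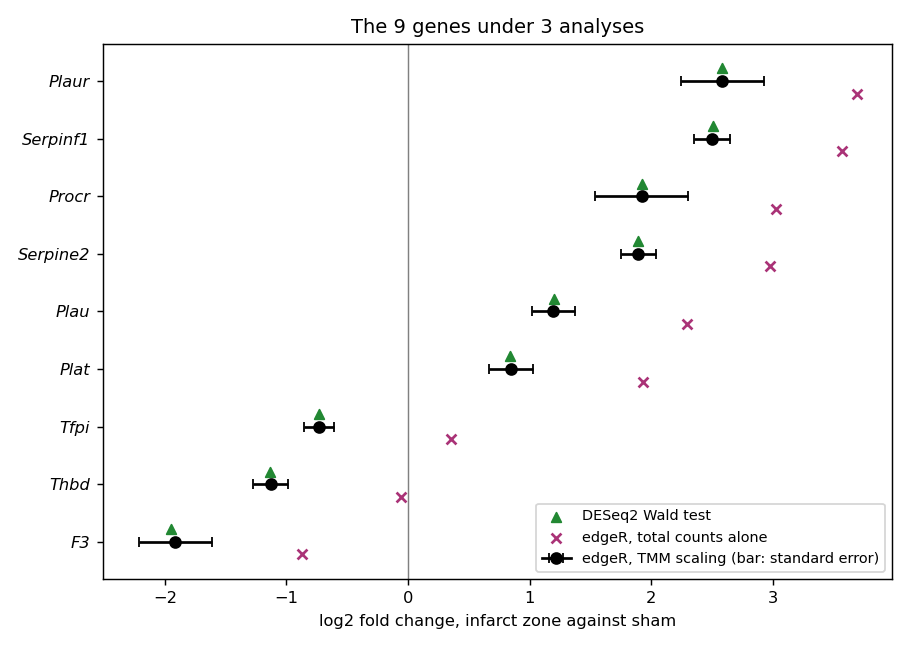
Log2 fold change (IZ against sham) of the 9 genes, as circles with SE for edgeR with TMM scaling, triangles for the DESeq2 Wald test and crosses for edgeR scaled by total counts alone. Plaur and Serpinf1 are the highest of the 9 and F3 the lowest; scaled by total counts alone, Tfpi turns to 0.35 and Thbd is at -0.06.

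The order of the levels changed between the groups. One count stands for 1 molecule's 3' end, so levels of different genes can be set side by side without a correction for length. In sham the order of means was Tfpi, Serpinf1, Thbd, Serpine2, F3, Plat, Plau, Procr and Plaur. The ranges of neighbours in that order overlapped, except those of Serpine2 and F3. In IZ it was Serpinf1, Serpine2, Tfpi, Plat, Plau, Plaur, Thbd, Procr and F3, with overlapping ranges for each pair of neighbours except Serpine2 and Tfpi. Such ranges ignore that both genes were read in the same library, and Serpinf1 was above Serpine2 in every IZ library. The 9 genes together summed to 215 to 247 CPM in sham and to 413 to 608 CPM in IZ.

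Ratios of 2 genes within a library, which do not depend on how libraries are scaled, were compared between the groups for 12 pairs by an exact two-sided permutation test, with Benjamini-Hochberg adjustment over the 12. Of these, 10 passed. Several of the ratios share a term, and the pairs were chosen with earlier results of these data known. The share that would pass over all pairs of genes was not computed, and 69.5% of single tested genes were called. Both activators fell against the serpin Serpine2. Plat fell 2.17-fold against Serpine2, from -1.23 ± 0.30 to -2.35 ± 0.72 on the log2 scale (exact permutation test, adjusted p = 0.00155, lower in 7 of 9 IZ libraries than in any sham library). Plau fell 1.64-fold against Serpine2 (exact permutation test, adjusted p = 0.0158), with 4 of 9 IZ libraries below all sham libraries, and this call was lost with a difference of medians (-0.64, exact permutation test, adjusted p = 0.126).

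The receptor rose more than its ligand. The log2 ratio of Plaur to Plau went from -1.81 ± 1.10 in sham to -0.39 ± 0.36 in IZ, 2.66-fold higher (exact permutation test, adjusted p = 0.00197, 5 of 9 IZ libraries above all sham libraries). The sham value rests on 0 to 10 Plaur counts per library, and with a prior count of 5 in place of 1 the log2 difference of 1.41 became 0.83 (exact permutation test, adjusted p = 0.00494). The 2 activators were not shown to differ in their change: the log2 ratio of Plau to Plat was -0.56 ± 0.40 in sham and -0.16 ± 0.44 in IZ (exact permutation test, adjusted p = 0.0753). That ratio passed when sham replicate 1 (difference 0.49), sham replicate 7 (0.48) or IZ replicate 1 (0.50) was left out.

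**Figure D3:**
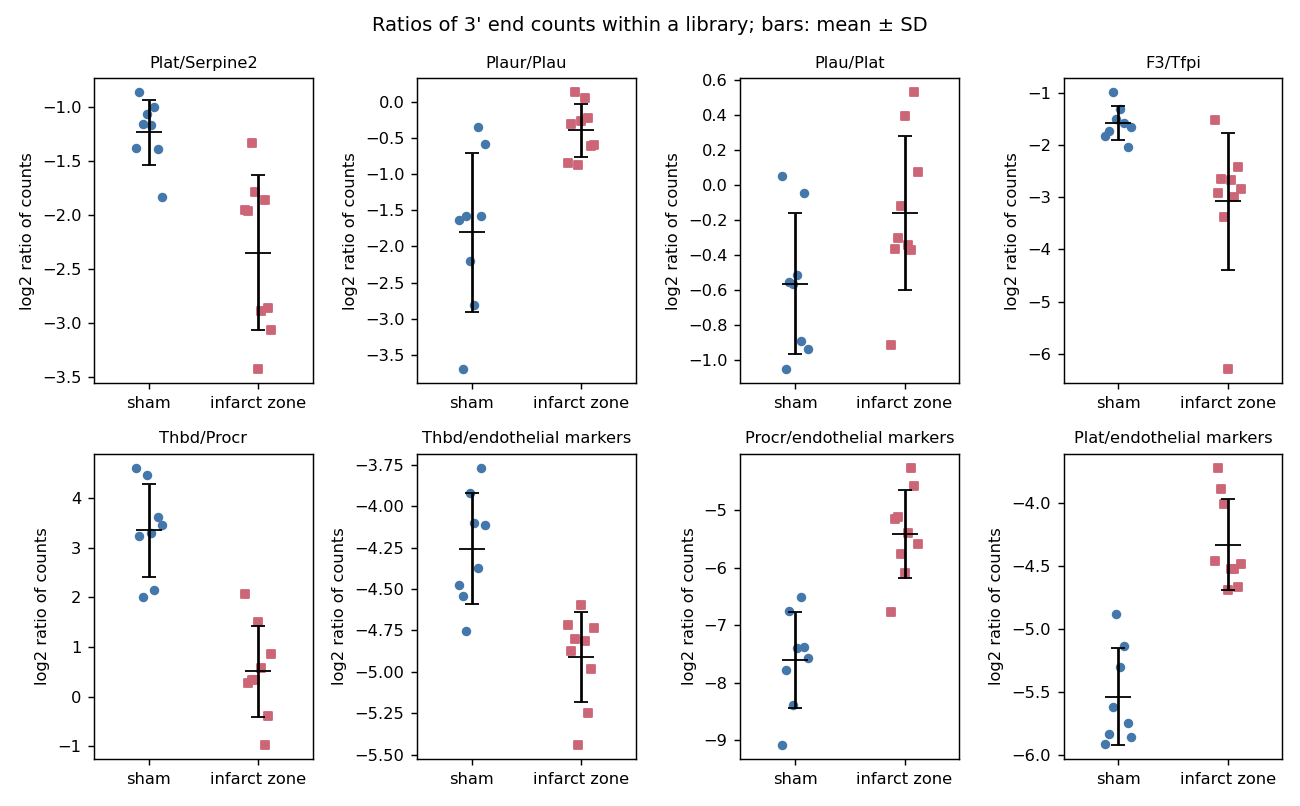
Log2 ratio of 2 transcripts, or of a transcript and the summed endothelial markers, within each library (8 sham, 9 IZ), with 1 point per library and group means with SD. Thbd/Procr and Procr/endothelial markers move the most, in opposite directions.

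On the side of coagulation, F3 fell against both of its counterparts. The log2 ratio of F3 to Tfpi was -1.57 ± 0.33 in sham and -3.07 ± 1.31 in IZ (2.83-fold lower, exact permutation test, adjusted p = 0.0014, 8 of 9 IZ libraries below all sham libraries). Its log2 difference of -1.50 became -1.10 without IZ replicate 5, which held 0 counts of F3, and -1.11 with a prior count of 5. The ratio of F3 to Thbd fell 2.18-fold (exact permutation test, adjusted p = 0.00927, 6 of 9 below), with a log2 difference of -1.12 that became -0.75 with a prior count of 5. The 2 partners of protein C activation parted furthest: the log2 ratio of Thbd to Procr was 3.35 ± 0.94 in sham and 0.51 ± 0.91 in IZ, 7.18-fold lower (exact permutation test, adjusted p = 6.58e-04), in 8 of 9 IZ libraries below all sham libraries. The sham value rests on 2 to 9 Procr counts per library. With a prior count of 5, the log2 difference of -2.84 became -2.26 (exact permutation test, adjusted p = 6.91e-04).

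Thbd, Procr, Tfpi and Plat are known as genes of endothelium, so they were set against 10 endothelial markers. The markers summed to 557.6 to 1045 CPM in sham and to 422 to 676 CPM in IZ, and 4 of the 10 were called lower and 0 higher. Scaled by total counts alone, where 85.8% of all called genes were higher, this turned to 8 higher and 1 lower. Against that sum, Thbd fell 1.57-fold (exact permutation test, adjusted p = 6.91e-04, 6 of 9 IZ libraries below all sham libraries). Procr rose 4.56-fold (exact permutation test, adjusted p = 6.58e-04, 8 of 9 above) and Plat rose 2.31-fold (exact permutation test, p = 4.11e-05, the smallest that the design can give, adjusted p = 4.94e-04, 9 of 9 above). With a prior count of 5, the log2 difference of 2.19 for Procr became 1.63 (exact permutation test, adjusted p = 6.91e-04). The log2 ratio of Tfpi to the markers was -3.67 ± 0.33 in sham and -3.95 ± 0.49 in IZ, a difference that did not pass (exact permutation test, adjusted p = 0.199). Of the 4 genes, 1 thus fell, 2 rose and 1 did not pass against the endothelial markers.

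Genes that rose were also set against the summed fibroblast or macrophage markers, whose sums were higher in IZ. This description was chosen after values had been seen. Against fibroblast markers the log2 ratio in IZ differed from sham by -0.32 for Serpine2, with 4 of 9 IZ libraries below all sham libraries, and by 0.32 for Serpinf1, with 1 of 9 above. For Plau it differed by -1.04 against fibroblast markers, with 7 of 9 IZ libraries below all sham libraries, and by -2.09 against macrophage markers, with 9 of 9 below. For Plaur it differed by -0.68 against macrophage markers, with no IZ library outside the sham range. Which cells carry these transcripts was not tested.

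Levels of paired genes were also compared from library to library. Of 10 relations between paired genes within IZ or within sham, none passed adjustment on the TMM scale. Plau and Plaur gave Pearson's r = 0.76 over 9 IZ libraries (exact permutation p = 0.0149, adjusted p = 0.149) and Spearman's rho = 0.57 (exact permutation p = 0.121). Without the 2 libraries farthest from the median of Plau, r was 0.20, so the value of r depended on them. Leaving them out also narrows the range of Plau, which can itself lower r. With total-count CPM, r over all 9 was 0.87 (exact permutation, adjusted p = 0.0480). Plat and Serpine2 gave r = -0.73 (exact permutation p = 0.0311, adjusted p = 0.156), rho = -0.68 (exact permutation p = 0.0503) and, without the 2 libraries farthest from the median, r = -0.70.

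The genes whose IZ levels followed 4 of the 9 most closely were found by Pearson's r of log2 CPM over the 9 IZ libraries, among 9355 tested genes. Those nearest to Plau were Npm1 (r = 0.97), Cd47 and Evi2 (0.95 each), and those nearest to Plaur were Hspa14 (0.96), Pitpna and C1galt1 (0.93 each). Those nearest to F3 were C330018D20Rik (0.96), Mrps10 and Tbc1d15 (0.95 each), and those nearest to Thbd were Egfl7 (0.92), an endothelial marker, Letm1 (0.91) and Trim68 (0.90). F3 had 0 counts in IZ replicate 5, a value that stood apart from the other IZ libraries. With 9 libraries that share depth and tissue content, and the 3 highest picked from 9355 genes without a test, such values are a description.

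The wider pathway was read from 55 further genes in 5 lists, of which 48 had a row and 25 passed the filter. Of the 25, 17 were called higher, 1 lower and 7 neither, where 36.3% and 33.1% of all tested genes were called higher and lower. Scaled by total counts alone, 24 were higher and 0 lower. On that scale 10727 of all 12301 tested genes were called, 85.8% of them as higher. The 25 had a median log2 fold change of 1.02, which was the same with the 2 genes near 0 counts in sham (F7 and F10) at their lower bound. F7, F10 and Tfpi2, named here for their low counts, had at most 3, 1 and 5 counts in sham. They passed the filter through IZ, so a call of lower was not open to them. Among genes that bind plasminogen or partner with uPAR, 6 of 8 were higher, 1 lower and 1 neither. Mrc2, a collagen receptor that forms complexes with uPAR, rose from 19.7 ± 4.66 CPM (SD, n = 8) to 135 ± 38.3 CPM (SD, n = 9), by 2.78 ± 0.18 on the log2 scale (edgeR adjusted p = 1.23e-11). Vtn, the matrix protein vitronectin that binds uPAR, was the gene that fell, at -1.41 ± 0.34 (edgeR adjusted p = 7.66e-04). Scaled by total counts alone, Vtn was at -0.41 (edgeR adjusted p = 0.179). Its IZ libraries ranged from 4.31 to 29.7 CPM, with 8 of 9 below all sham libraries.

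Of 2 tested inhibitors of the activators and of plasmin, Serping1 rose by 0.98 ± 0.16 on the log2 scale (edgeR adjusted p = 1.20e-05), and Serpini1 was called neither way, though both were higher when scaled by total counts alone. Of 10 coagulation factors and genes of their processing, 5 were higher and 5 neither. The 5 higher genes included F7 and F10, which passed the filter through IZ. All 10 were higher when scaled by total counts alone, where 85.8% of all called genes were higher. Vkorc1, part of the vitamin K cycle, rose by 1.99 ± 0.17 (edgeR adjusted p = 6.56e-10) and Mcfd2, a cargo receptor for factor V and factor VIII, by 0.54 ± 0.13 (edgeR adjusted p = 7.23e-04). All 4 other anticoagulant genes that could be tested were higher, among them Tfpi2, which passed the filter through IZ. Entpd1, which removes ATP and ADP from plasma, was up by 1.87 ± 0.17 (edgeR adjusted p = 1.99e-09) and Pros1, the cofactor protein S, by 1.02 ± 0.16 (edgeR adjusted p = 4.31e-06). F2r, the main thrombin receptor, was up by 1.35 ± 0.18 (edgeR adjusted p = 4.61e-07). Plasminogen itself and protein C were not analysed here.

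**Figure D4:**
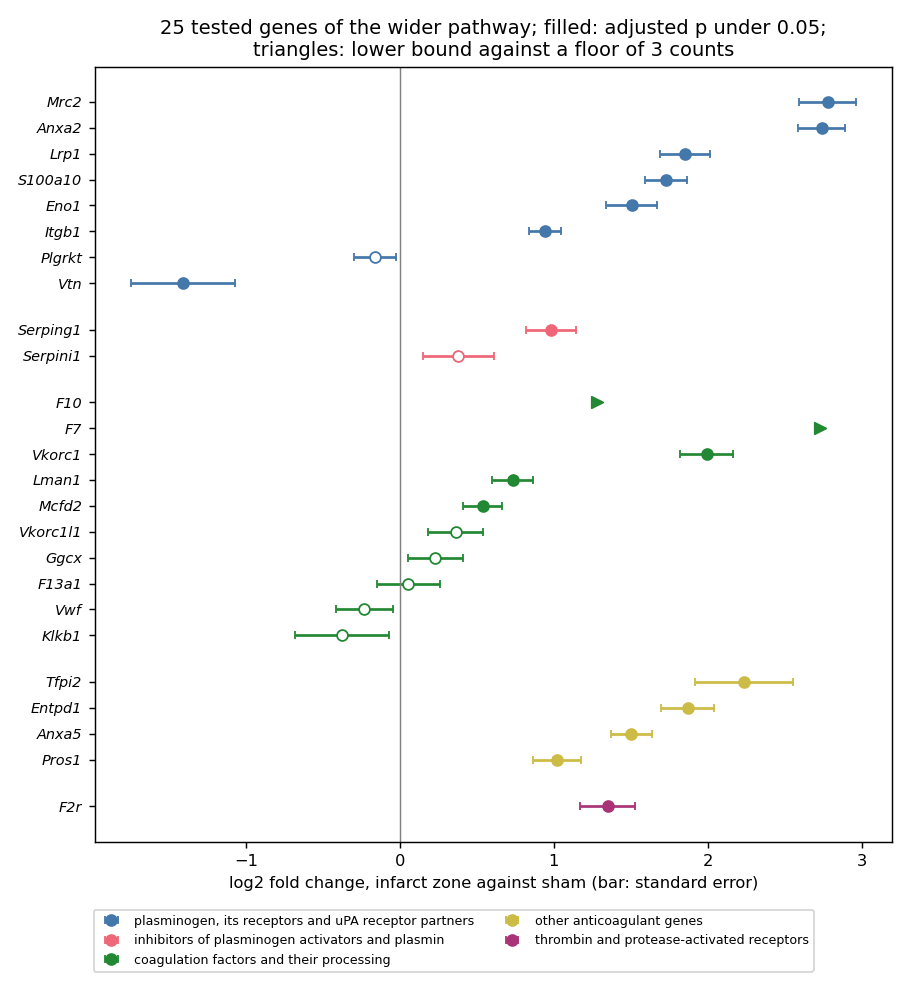
Log2 fold change (IZ against sham, with SE) of the 25 tested genes of the wider pathway in the TMM-scaled fit, in 5 groups; filled points passed an adjusted p of 0.05 and triangles mark a lower bound. Points lie mostly to the right of 0, with Mrc2 at 2.78 and Vtn at -1.41 as the extremes of the first group; Vtn was at -0.41 when scaled by total counts alone.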

How the data were processed

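Total RNA of 8 sham left ventricles and 9 infarct zones, each from another mouse, was sequenced by MACE, which reads 3' ends and carries molecular identifiers. The authors removed PCR duplicates, trimmed reads with Cutadapt 4.6 and counted reads per gene with HTSeq on mm10; Bowtie2 and DESeq2 are named in the submitters' processing notes. The release of the annotation is not given in the sources used here. What the authors deposited are whole-number counts per gene that were not normalized.

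Of 31647 features, 31521 matched an annotation of GRCm38, and 35 merged features took at most 0.215% of a library's counts. Unused columns numbered 0. All pairs of libraries differed by 2.41 to 252 times the sampling variance, so none was a copy. The main test was that of edgeR 4.0.16 under R 4.3.3 (TMM scaling, filterByExpr with a minimum of 10, two-sided quasi-likelihood F-test without covariates, Benjamini-Hochberg over 12301 genes, threshold 0.05). CPM values use TMM-scaled library sizes; log2 ratios add a prior count of 1 to both terms. With DESeq2 1.42.0, BLAST 2.17.0 (no other gene near-identical to any of the 9 at their 3' ends), SciPy 1.17.1 and promoter windows from RefSeq, the alternatives and descriptions were made. On simulated counts the edgeR step recovered 89% of 200 changed genes, with 4.30% false calls. There, 200 of 12113 genes changed by 1 on the log2 scale, as many up as down, with no shift in composition. In the data 69.5% of tested genes were called, so these rates cannot be carried over to them. Intervals and floors cover counting error only.

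The labels give no batch, so no within-batch value could be had. The 9 genes, the lists and the pairs were chosen with earlier results of these data known. Named were the 9 genes, the highest and lowest called gene of each pathway list whose mean reached 10 CPM, and for Plau, Plaur, F3 and Thbd the 3 genes of highest r; others are said to be chosen later. The results of 1 gene that met the rule are not reported here, and counts and adjustments over lists and ratios leave it out. Alternatives were other scalings, filters, DESeq2, a replicate block, thinned counts and leaving out each library.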

Additional observations from a re-analysis of the deposited data

Results flagged for a closer look

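In 42 groups of libraries checked, 4 held a library whose gap to its nearest neighbour was large beside the group's range (9.52%, where chance gives about 1 in 20). IZ replicate 5 was the lowest in F3 (log2 CPM, gap 0.5414 of the range), in the log2 ratio of F3 to Tfpi (0.6136) and in that of F3 to Thbd (0.5866); it held 0 counts of F3, and these 3 values share that count. Sham replicate 8 was the lowest in the log2 ratio of Plau to Serpine2 (0.5917).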

How the results depend on the processing

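Over 26 alternative settings, 4 to 7 of the 9 genes were called higher (6 as reported) and 1 to 3 lower (3 as reported). Scaled by total counts alone, 1 of the 9 and 0 pathway genes were called lower, and Tfpi reversed to 0.35; at a minimum mean of 50 counts F3, Plaur, Procr and Vtn were not tested, so 0 pathway genes were lower. The overall number called was 8544, and 10727 under total counts alone, 85.8% of them higher against 52.3%. At that minimum it was 5239. The log2 ratio of Plau to Serpine2 was -0.64 with a difference of medians (adjusted p = 0.126, exact permutation test). That of Plau to Plat ran from 0.32 to 0.50 with 1 library left out, and passed without sham replicate 1 (0.49, exact permutation adjusted p = 0.0324), sham replicate 7 (0.48, 0.0415) or IZ replicate 1 (0.50, 0.0264). Of the correlations, with total-count CPM r of Plau and Plaur in IZ was 0.87 (exact permutation, adjusted p = 0.0480), and r changed sign for Plau and Serpine2 in IZ (0.14), F3 and Tfpi in sham (-0.079) and Thbd and Procr in IZ (0.050); with a prior count of 5, for F3 and Tfpi in IZ (0.039); and without the 2 libraries farthest from the median, for Plau and Serpine2 in sham (0.38) and F3 and Tfpi in IZ (0.83). The cause was not tested. Replicate numbers did not pair the libraries: deviations of same-numbered libraries correlated at -0.22 to 0.13, and 1 of 8 sham libraries correlated best with its own number. With a replicate block on 8 pairs, calls of the 9 genes were unchanged (6 higher, 3 lower; 15 pathway genes higher and 1 lower), for example F3 -2.04 and Plau 1.22. Depth limits Plaur and Procr in sham (at most 10 and 9 counts) and F3 in IZ.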

Other observations

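F7 and F10, the factors that act with tissue factor and after it, were named after their values were seen. No sham library held more than 3 counts of F7, and the IZ libraries held 8 to 99 (11.9 ± 5.34 CPM, SD, n = 9), at least 6.63-fold higher against a floor of 3 counts per library. F10 had at most 1 count in sham and 1 to 51 in IZ (4.34 ± 2.36 CPM, SD, n = 9), at least 2.43-fold higher. Hepatocyte markers, for the organ where these factors are mostly made, summed to 3.39 to 16.6 CPM in sham and to 0 to 3.27 CPM in IZ.

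The platelet and neutrophil markers that could be tested were also higher. Platelet markers summed to 29.995 to 56.3 CPM in sham and to 50.4 to 359 CPM in IZ, with 2 of 7 tested and both called higher. These 2 were Pf4 and Gp1bb, while Ppbp, Itga2b, Gp9, Gp1ba and Gp6 did not pass the filter on low counts. Whether the Pf4 and Gp1bb transcripts came from platelets was not tested. Neutrophil markers summed to 5.00 to 12.3 CPM in sham and to 15.9 to 220 CPM in IZ, with 4 of 7 tested and all called higher. Retnlg, Cxcr2 and Ly6g did not pass the filter. With so low a sum in sham, most of the tested neutrophil markers passed the filter through IZ. A call of lower was not open to those. Of all tested genes, 36.3% were called higher. Pericyte and smooth muscle markers summed to 515 to 753 CPM in sham and to 255 to 510 CPM in IZ. Of the 7, 1 was called higher, 4 lower and 2 neither. Scaled by total counts alone, where 85.8% of all called genes were higher, this turned to 3 higher and 2 lower. Their part in the results of the 9 genes was not tested.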
